A study of Mus musculus with 32 samples.

Results

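AP-1 is a dimeric transcription factor, and 8 of the genes that can supply its subunits were followed through the retinas of mice flown in space: Fos, Fosb, Fosl2, Jun, Junb, Jund, Atf3 and Batf3. They were picked by symbol from 26629 genes with an expression value, and 7 of the 8 were among the 14322 genes that reached a mean of 1 FPKM (fragments per kilobase of transcript and library size) and were tested. Batf3 did not reach that mean. Female C57 BL/6J mice, 16 weeks old at launch and 21 weeks old by their labels, spent 37 days in orbit or stayed on the ground in the same type of habitat. All of them were euthanised and frozen as whole carcasses, which were thawed before the eyes were taken out and the retina was separated from cornea, lens and sclera. RNA-seq covered 9 spaceflight and 7 ground control retinas, and bisulfite sequencing of DNA from restriction fragments (RRBS) covered 8 and 8, with 1 retina of 1 mouse in each library. Mice are named by their number. The RNA library of mouse M21 had a source name from the flight and a condition label from the ground, so it was counted as spaceflight and its other reading was tried as well. For 6 of the 7 ground control RNA libraries, M32 and M40 among them, the title carries the number of another ground control mouse than the expression table does, and the table's number is used.

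AP-1 proteins carry a basic region that binds DNA next to a leucine zipper that joins the dimer. Fos, Fosb and Fosl2 belong to the Fos family, whose proteins dimerise with a Jun protein. Jun, Junb and Jund form the Jun family and can also pair among themselves. Atf3 and Batf3 are smaller relatives that bind as partners of Jun proteins, Atf3 being known as a stress-induced repressor and Batf3 for its part in dendritic cells. Fos, Fosb, Junb, Jun and Atf3 are immediate early genes: their transcription starts within minutes of a stimulus, from factors already present, and their mRNAs are short-lived. In the retina Fos mRNA is known to follow light and the daily cycle, and Fos and Jun proteins have been studied in photoreceptor death.

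The 8 genes are small and lie on 6 chromosomes of GRCm38.p6. Fos spans chr12:85473890-85477274 on the plus strand in 4 exons, Fosb chr7:19302696-19310118 on the minus strand in up to 5 exons, and Fosl2 chr5:32136472-32157840 on the plus strand in 4 exons. Jun (chr4:95049036-95052222, minus strand), Junb (chr8:84976909-84978748, minus strand) and Jund (chr8:70697739-70700616, plus strand) have 1 exon each. Atf3 (chr1:191170296-191183333, minus strand, 4 exons) and Batf3 (chr1:191098414-191108943, plus strand, 3 exons) lie on the same chromosome. The 140 bases before the annotated start of 5 of them, read from RefSeq on the strand of the gene, are shown because most of these genes are induced together and because they hold the elements searched for. They are chr12:85473750-85473889 for Fos, chr7:19310046-19310185 for Fosb, chr8:84978749-84978888 for Junb, chr4:95052223-95052362 for Jun and chr1:191183334-191183473 for Atf3. Capitals mark TGACG, the core of the cAMP response element, TGACNTCA, its longer form, the TATA box TATAAA and the CCAAT box, each searched on both strands.
Fos: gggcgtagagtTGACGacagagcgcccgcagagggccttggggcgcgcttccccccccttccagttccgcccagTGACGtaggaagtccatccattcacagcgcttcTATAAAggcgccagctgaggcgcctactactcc
Fosb: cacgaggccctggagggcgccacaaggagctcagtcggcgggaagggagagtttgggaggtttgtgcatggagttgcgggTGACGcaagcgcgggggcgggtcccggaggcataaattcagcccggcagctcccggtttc
Junb: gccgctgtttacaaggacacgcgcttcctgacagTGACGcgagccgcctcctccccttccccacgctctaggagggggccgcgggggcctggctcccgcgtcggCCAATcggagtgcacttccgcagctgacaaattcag
Jun: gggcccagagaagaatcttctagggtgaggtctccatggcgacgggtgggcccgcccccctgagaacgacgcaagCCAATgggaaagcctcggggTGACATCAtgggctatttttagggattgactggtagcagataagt
Atf3: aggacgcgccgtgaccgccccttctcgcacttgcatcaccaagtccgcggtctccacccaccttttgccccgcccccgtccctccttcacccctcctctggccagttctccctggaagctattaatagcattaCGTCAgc

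TGACG, which is contained in TGACNTCA when N is G, was found in 4 of the 8 promoters, at 2 places in Fos and at 1 place each in Fosb, Junb and, as CGTCA on the opposite strand, Atf3. Over the 300 bases from 250 before to 50 after the start, 20.9% of 32544 mouse promoters hold it. TGACNTCA was found in Jun alone of the 8, against 8.62% of all promoters. TATAAA was found in Fos, starting 33 bases before the annotated start (position -33), and at the annotated start of Junb, against 13.6% of all promoters. CCAAT was found in 3 of the 8 and in 37.4% of all, and the GC box GGGCGG in 6 of the 8 and in 35.9% of all. The AP-1 site TGANTCA was in none of the 8 windows and in 7.79% of all. A match is a string of letters and was not measured as a bound site.

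Some libraries stood apart in what they held besides retina. The 8 rod markers had a summed 13582 to 29395 FPKM after spaceflight and 18148 to 28484 FPKM in ground control, and no gene of the rod, cone, bipolar, amacrine, ganglion cell or Müller glia lists was at 0 in all libraries. The summed 10 markers of corneal and surface epithelium were 2065 FPKM in M21 and 1052 FPKM in M22, both spaceflight, against 10.98 to 137 FPKM in the other 7 spaceflight and 15.7 to 126 FPKM in the ground control libraries. In M21 and M22 the corneal keratin Krt12 was low, at 2.10 and 1.75 FPKM, and the basal keratin Krt5 was high, at 580 and 121 FPKM. Lens markers summed to 29244 FPKM in M22 and 37132 FPKM in the ground control mouse M31, and to 1405 FPKM or less elsewhere. M31 also led the fibroblast list, with 533 FPKM against 26.1 to 162 FPKM in the other ground control libraries. Short structural RNAs took 32.3% to 74.3% of the FPKM of a library. The comparisons of RNA are also given without M21 and M22, a choice made after the markers were seen.

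Jund was the most abundant subunit mRNA in the retina, with a mean of 31.1 ± 7.26 FPKM over the 16 libraries (SD, n = 16), and it lay above Jun in 16 of 16. Jun followed with 13.3 ± 3.13 FPKM and lay above Fos in 14 libraries. Fos (10.1 ± 4.80 FPKM) and Junb (9.62 ± 5.48 FPKM) were not apart, Fos being the higher in 11 libraries. Fosl2 (4.25 ± 2.53 FPKM) was below Junb in all 16 and above Atf3 (3.01 ± 0.782 FPKM) in 10. Fosb had 1.70 ± 1.24 FPKM. Batf3 was listed at 0 in 10 libraries, and its values in the other 6 were 0.198 in M21, 0.266 in M25, 0.0929 in M30, 0.672 in M31, 0.0747 in M36 and 0.139 in M40. The 3 Jun family genes made up, of the summed FPKM of the 8 genes, 74.6% ± 3.74 (SD) in the 9 spaceflight retinas and 73.6% ± 2.24 (SD) in the 7 ground control retinas. The sum itself was 65.1 ± 18.1 FPKM after spaceflight and 83.5 ± 22.6 FPKM in ground control.

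**Figure D1:**
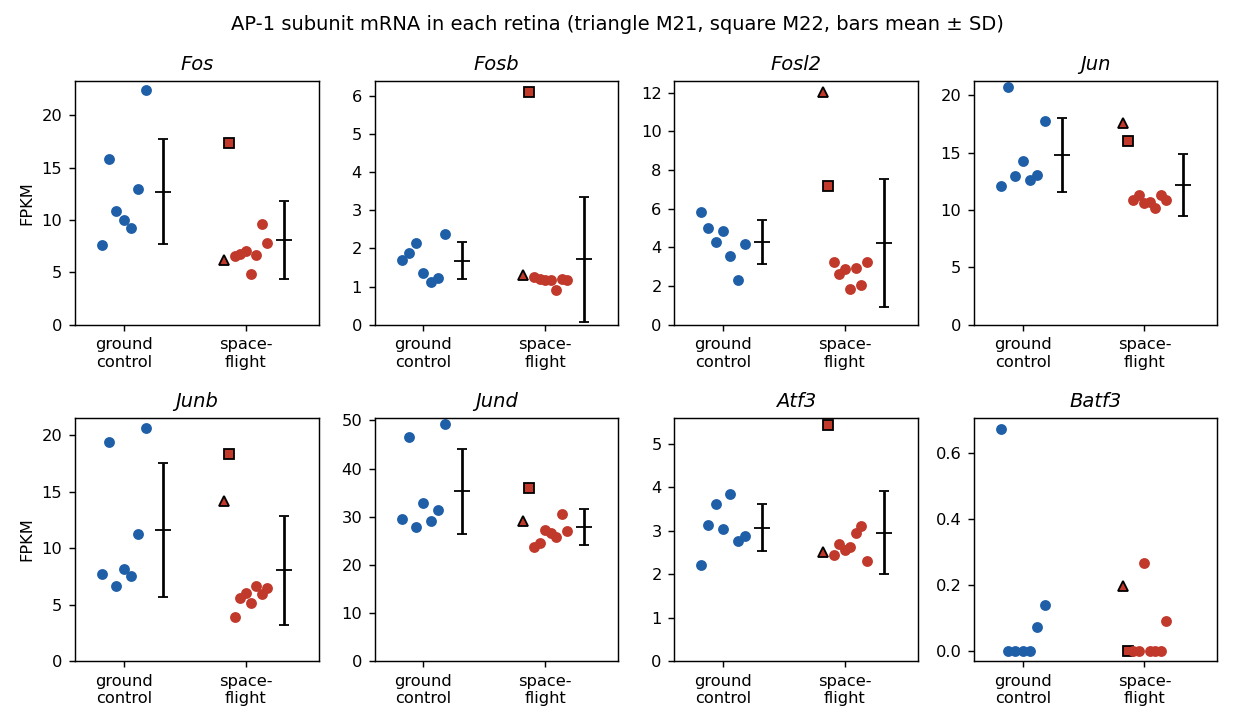
FPKM of each AP-1 subunit in every retina, ground control in blue (n = 7) and spaceflight in red (n = 9), with the mean and SD beside each group except for Batf3. Among the spaceflight retinas the triangle is M21 and the square M22, and the square is the highest spaceflight value for Fos, at 17.3 FPKM, and for Fosb, at 6.09 FPKM.

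Fos, the founding member of its family, measured lower after spaceflight, without passing the adjusted test. The lowest, median and highest values were 4.82, 6.72 and 17.3 FPKM after spaceflight and 7.62, 10.9 and 22.4 FPKM in ground control. Of the 9 spaceflight retinas 6 lay below the lowest ground control value, and M22 was the 1 spaceflight retina in the upper range of the ground control values. The means were 8.09 ± 3.70 FPKM (SD, n = 9) and 12.7 ± 5.03 FPKM (SD, n = 7). On the scale of log2(FPKM + 0.1) the difference, spaceflight minus ground control, was -0.66 (SE 0.24, limma unadjusted p = 0.0146, limma adjusted p = 0.395, exact permutation p = 0.0254). The exact permutation p of Fos and of the subunits that follow is not adjusted.

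Jund, which is expressed without a stimulus in most tissues, was the other subunit past the fold of 1.2 and the unadjusted p of 0.05. Its lowest, median and highest values were 23.8, 27.04 and 35.9 FPKM after spaceflight and 28.0, 31.5 and 49.3 FPKM in ground control. Again 6 of 9 spaceflight retinas were below all ground control retinas, and the difference was -0.31 (SE 0.12, limma adjusted p = 0.409, exact permutation p = 0.0246). Jun, the partner of most Fos dimers, ran from 10.2 over a median of 10.9 to 17.6 FPKM after spaceflight and from 12.1 over 13.05 to 20.7 FPKM in ground control. The groups of Jun overlapped only through M21, at 17.6 FPKM, and M22, at 16.0 FPKM. Its difference was -0.28 (SE 0.14, limma adjusted p = 0.479, exact permutation p = 0.0733).

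Junb, an immediate early member that can hold back Jun activity, had the widest spread of the Jun family as a fold, its highest library being 5.28 times its lowest against 2.07 times for Jund. Its values were 3.91, 6.02 and 18.4 FPKM (lowest, median, highest) after spaceflight and 6.65, 8.21 and 20.7 FPKM in ground control. M21 (14.2 FPKM) and M22 (18.4 FPKM) after spaceflight and M32 (19.4 FPKM) and M40 (20.7 FPKM) in ground control were far above the rest of their groups, and the difference of -0.56 had an SE of 0.32 (limma adjusted p = 0.525, exact permutation p = 0.128). Fosl2, which encodes Fra-2, had 1.87, 2.92 and 12.04 FPKM after spaceflight and 2.31, 4.27 and 5.82 FPKM in ground control. M21 (12.04 FPKM) and M22 (7.19 FPKM) were its 2 highest libraries, and the difference was -0.23 (SE 0.32, limma adjusted p = 0.799, exact permutation p = 0.528).

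Fosb lay between 0.919 and 1.29 FPKM in 8 of the 9 spaceflight retinas and at 6.09 FPKM in M22. The ground control retinas lay between 1.11 and 2.37 FPKM, and the difference was -0.19 (SE 0.31, limma adjusted p = 0.825, exact permutation p = 0.649). Atf3 had nearly the same level in both groups, 2.96 ± 0.960 FPKM (SD, n = 9) and 3.07 ± 0.540 FPKM (SD, n = 7), with M22 highest at 5.43 FPKM. Its difference was -0.08 (SE 0.16, limma adjusted p = 0.861, exact permutation p = 0.652). Batf3 was above 0 in 3 spaceflight and 3 ground control libraries and was not tested.

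By the thresholds of a fold of 1.2, p of 0.05 and adjusted p of 0.3, 0 of the 7 tested subunits were called in limma, where 0.147% of all tested genes were called. The exact permutation test, run for every gene over all ways to divide the 16 libraries, also called 0 of the 7. Of all 14322 genes it called 162 lower and 242 higher. Without the adjusted p, 2 of the 7 (Fos and Jund) were past the thresholds in the lower direction, where 2.92% of all tested genes were, and 0 in the higher direction, where 4.36% were. All 7 differences were below 0, with a median of -0.28 against -0.00051 over all genes tested. No subunit had every spaceflight retina below every ground control retina, a separation that 0.0349% of the tested genes had. When each library was scaled to its sum without short structural RNAs, the median of all genes moved by 0.12 and Atf3 stood at 0.04, above 0. The FPKM are those of whole retinas, in which fewer cells of a type and less RNA per cell cannot be told apart.

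Leaving out M21 and M22, the 2 spaceflight retinas with the highest surface epithelium markers, widened the differences. In the remaining 7 spaceflight retinas the mean and SD were 7.04 ± 1.46 FPKM for Fos, 10.8 ± 0.407 FPKM for Jun, 5.69 ± 0.928 FPKM for Junb, 2.69 ± 0.549 FPKM for Fosl2 and 1.16 ± 0.108 FPKM for Fosb. Without both, 6 of the 7 subunits, all but Atf3, were past the unadjusted thresholds in the lower direction, against 3.73% of all genes. M22 was among the 3 highest of the 16 libraries for 6 of the 7 subunits and M21 for 2. Leaving these 2 spaceflight retinas out lowers the spaceflight means by the choice itself, so nothing is read from this count. Jun had overlapped only through these 2 retinas, so that its 7 other spaceflight values were below every ground control value by the choice itself. Of all genes 0.128% were separated in this way, and nothing is read from the comparison. The log2 differences were -0.78 for Fos, -0.42 for Jun, -0.90 for Junb, -0.63 for Fosl2, -0.46 for Fosb, -0.38 for Jund and -0.18 for Atf3, and with limma adjusted p of 0.373 or more none was called.

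A further fit used all 16 libraries with the mean log2 level of the surface epithelium markers as a term. It called 5 subunits lower (Fos, Fosl2, Jun, Junb and Jund, limma adjusted p from 0.221 to 0.231). Over both directions it called 11.2% of all genes, with 720 of 14322 lower. With the fibroblast markers as a term 2 were called (Fos and Jund), against 7.11% of all genes over both directions and 442 of 14322 lower. Without the ground control mouse M31, which led the lens and fibroblast lists, 3 were called (Fos, Jun and Jund). Of all genes 9.57% were called over both directions, with 722 of 14284 lower. Without M21 alone 4 subunits were past the unadjusted thresholds lower, where 377 of all 14230 tested genes were. Without M22 alone 5 subunits were, where 534 of 14251 genes were. Leaving out M32 or M40, the highest ground control retinas for Fos, Junb and Jund, left 1 subunit past the unadjusted thresholds in each case. Of all genes 275 of 14316 were past them lower without M32 and 190 of 14339 without M40. Counting M21 as ground control gave 4 subunits, against 248 of 14322 genes lower. The part of the other tissue in these differences was not tested beyond these fits.

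**Figure D2:**
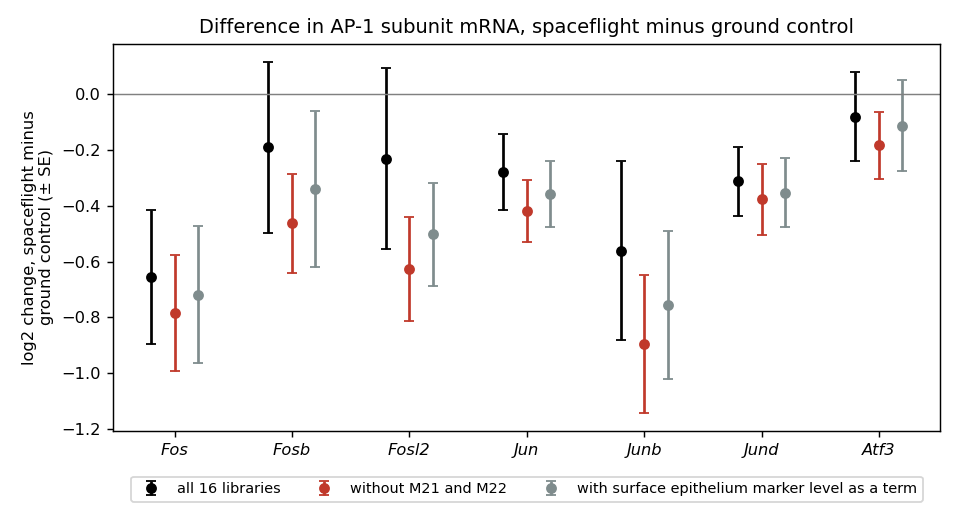
Difference in log2(FPKM + 0.1), spaceflight minus ground control, of the 7 tested subunits with its standard error, for all 16 libraries (black), without M21 and M22 (red) and with the surface epithelium marker level as a term (grey). Every point lies below 0, and the difference of Junb goes from -0.56 to -0.90 when M21 and M22 are left out.

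The subunits differed between retinas of the same group as well. After the group means were removed, Fos was compared with the other 7 genes over the 16 retinas, with p from permutation within groups (two-sided, 100000 resamples) adjusted over the 7 relations. Fos followed Jund most closely (r = 0.81, permutation p = 0.00059, adjusted p = 0.00413; rho = 0.64, permutation p = 0.0140, adjusted p = 0.0575). The relation to Junb had r = 0.73 (permutation p = 0.00347, adjusted p = 0.0121) and rho = 0.61 (permutation p = 0.0164, adjusted p = 0.0575). That to Fosb had r = 0.73 (permutation p = 0.0111, adjusted p = 0.0260) and rho = 0.37 (permutation p = 0.181, adjusted p = 0.253), and that to Jun r = 0.59 (permutation p = 0.0222, adjusted p = 0.0388) and rho = 0.51 (permutation p = 0.0620, adjusted p = 0.145).

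Atf3 (r = 0.59, permutation p = 0.0415, adjusted p = 0.0581; rho = 0.37, permutation p = 0.162, adjusted p = 0.253), Fosl2 (r = 0.18, permutation p = 0.506, adjusted p = 0.509; rho = 0.01, permutation p = 0.960, adjusted p = 0.960) and Batf3 (r = -0.19, permutation p = 0.509, adjusted p = 0.509; rho = -0.02, permutation p = 0.940, adjusted p = 0.960) did not pass. Without M22 and M40, the 2 retinas farthest from the median of Fos, r was 0.62 for Jund, 0.40 for Junb, 0.36 for Jun, 0.28 for Atf3, 0.14 for Fosb, -0.18 for Fosl2 and -0.32 for Batf3. Without M22 alone r was 0.45 for Fosb, 0.59 for Junb and 0.47 for Jun, and without M40 alone 0.73, 0.67 and 0.54. In neither case did these 3 pass the adjusted p of 0.05, so that they rest in part on these retinas. Jun also did not pass without M26, M31, M32, M33 or M34 in turn (permutation adjusted p from 0.0506 to 0.0723). The relation to Jund passed without M22 and without M40. Without M21 and M22, over 14 retinas, 3 passed: Jund (r = 0.81), Junb (r = 0.79) and Jun (r = 0.72).

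**Figure D3:**
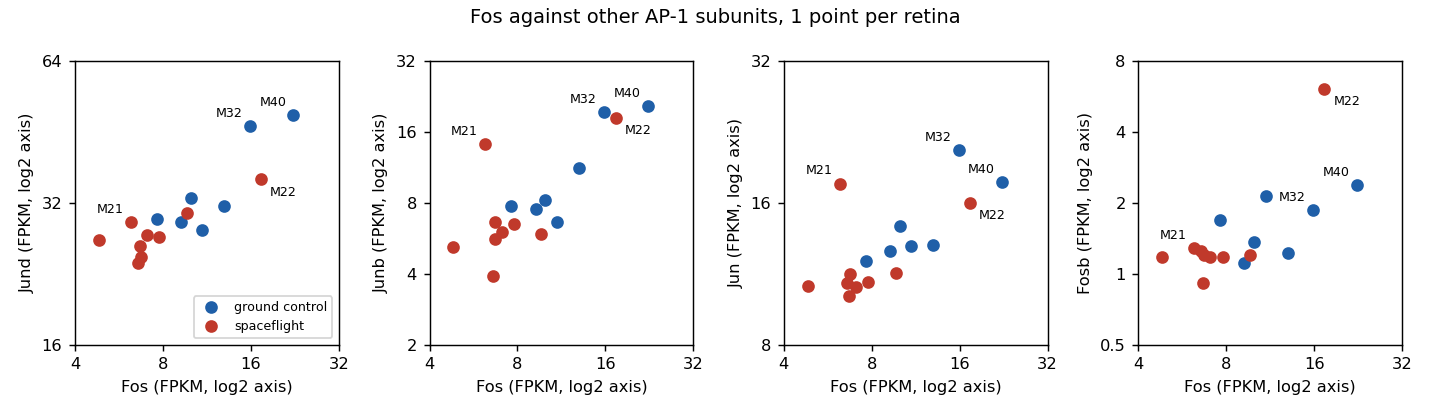
Fos against Jund, Junb, Jun and Fosb in FPKM on log2 axes, 1 point per retina, ground control in blue and spaceflight in red. M32 and M40 of the ground control group are high on both axes in the Jund and Junb panels, and M21 is high for Junb and Jun while its Fos, at 6.21 FPKM, lies among the other spaceflight retinas.

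The genes around AP-1 were read from lists. Of 35 other immediate early genes 29 were tested, and 3 were called lower after spaceflight, against 0.147% of all genes called in both directions. Nr4a3, an orphan nuclear receptor, fell from 6.23 ± 1.98 FPKM (SD, n = 7) to 2.85 ± 0.668 FPKM (SD, n = 9), a difference of -1.06 (SE 0.21, limma adjusted p = 0.218). Nab2, a corepressor of Egr proteins, fell from 14.3 ± 2.59 to 9.29 ± 1.71 FPKM, a difference of -0.62 (SE 0.13, limma adjusted p = 0.218). Nr4a1, the relative of Nr4a3 also called Nur77, fell from 22.5 ± 10.9 to 11.4 ± 2.69 FPKM, a difference of -0.90 (SE 0.21, limma adjusted p = 0.291), and 8 of 9 spaceflight retinas were below all ground control retinas. None of these calls held throughout. Without M21, M24, M25, M26, M27, M30, M32, M34 or M40 in turn all 3 were lost, without M36 Nab2 and Nr4a1, and without M23 or M29 Nr4a1, with limma adjusted p up to 0.470 for Nr4a3, 0.514 for Nab2 and 0.614 for Nr4a1. Limma also called 0 of the 29 with the eye as a term, with the scaling without short RNAs and with M21 as ground control. There 8, 5 and 9 were past the unadjusted thresholds lower, against 380 of 14322, 83 of 14403 and 248 of 14322 genes. With the surface epithelium markers as a term 13 of the 29 were called lower, against 720 of 14322 genes.

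With the 3 called genes, 6 immediate early genes were past the unadjusted thresholds lower and 0 higher, against 2.92% and 4.36% of all genes. The other 3 were Egr1, a zinc finger factor induced with Fos, at 31.8 ± 16.8 against 60.5 ± 30.9 FPKM (difference -0.88, limma adjusted p = 0.369), the clock gene Per1, at 37.1 ± 4.72 against 52.2 ± 13.4 FPKM (difference -0.46, limma adjusted p = 0.369), and the stress gene Gadd45g, at 7.80 ± 1.06 against 9.93 ± 2.13 FPKM (difference -0.33, limma adjusted p = 0.395). Of the 29 tested, 25 were below 0 and the median was -0.24. Without M21 and M22 the count in the lower direction was 13 of 28 tested, against 3.73% of all genes, and none was called. Without M22 alone it was 12, against 534 of 14251 genes, and without M21 alone 9, against 377 of 14230. Leaving out both was chosen after their markers were seen. As for the subunits, nothing is read from the counts without M21, M22 or both.

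Upstream of AP-1, 28 MAPK cascade kinases were found in the table and tested. Of them 0 were past the unadjusted thresholds lower, against 2.92% of all genes, and 2 higher, against 4.36%. Among the latter was the kinase Rps6ka3, at 16.4 ± 2.10 against 13.6 ± 3.03 FPKM (difference 0.30, limma adjusted p = 0.446). Among 17 drivers of AP-1 gene transcription only Srf, which binds the serum response element of Fos, was past them, at 8.02 ± 0.889 against 10.1 ± 1.69 FPKM (difference -0.32, SE 0.10, limma adjusted p = 0.369). Its value was below all ground control values in 7 of 9 spaceflight retinas. Of 12 genes of AP-1 mRNA decay and protein turnover, 0 were past the thresholds lower and 2 higher, the ubiquitin ligase Rfwd2 (Cop1, difference 0.28, limma adjusted p = 0.446) and the deadenylase Cnot7 (difference 0.27, limma adjusted p = 0.457). The medians of these lists were 0.08, -0.06 and -0.01, and the shares of 2.92% lower and 4.36% higher apply to each of them. With 1 library left out the higher counts ran from 0 to 4 for the kinases and from 0 to 2 for the decay genes, and the lower count of the drivers from 0 to 4. The counts over all genes moved as well. They ran from 379 (of 14316, without M32) to 842 (of 14355, without M35) higher and from 190 (of 14339, without M40) to 772 (of 14284, without M31) lower. Both counts of 4 came without M31, where 746 genes of all were higher.

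Of 30 other leucine zipper genes that can meet AP-1 subunits or share their sites, 24 were tested, with a median of -0.02. Past the unadjusted thresholds were 2 lower and 1 higher, against 2.92% and 4.36% of all genes. Ddit3, the stress factor CHOP, was at 36.9 ± 4.99 FPKM after spaceflight against 48.0 ± 6.33 FPKM (difference -0.38, limma adjusted p = 0.354), and Nfe2l1 at 39.5 ± 4.80 against 48.3 ± 8.04 FPKM (difference -0.28, limma adjusted p = 0.395). Nfe2l3 was at 2.76 ± 1.95 against 1.35 ± 0.268 FPKM (difference 0.79, limma adjusted p = 0.395). Nrl, the zipper factor that defines rods, was at 512 ± 109 FPKM after spaceflight and 513 ± 75.2 FPKM in ground control, far above any AP-1 subunit. Of 25 textbook AP-1 targets 14 were tested and 0 were past the thresholds in either direction, with 12 below 0 and a median of -0.15. The 2 above 0 were Ivl and Lor, genes of the cornified envelope of skin, which in M22 were at 27.1 and 37.1 FPKM and elsewhere at or below 1.39 FPKM.

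**Figure D4:**
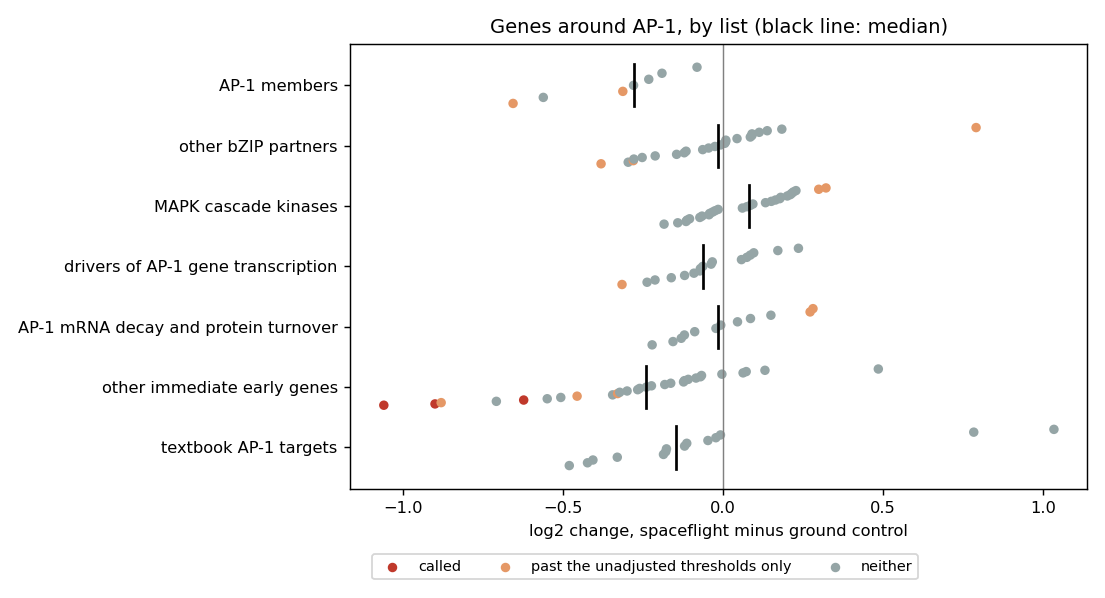
Difference in log2(FPKM + 0.1), spaceflight minus ground control, of every tested gene of the 7 lists, 1 point per gene, with the median of each list as a black line. The 3 red points are Nr4a3, Nr4a1 and Nab2, and the medians are -0.28 for the AP-1 subunits, -0.24 for the other immediate early genes and -0.02 for the other leucine zipper genes.

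The genes whose levels most resembled the mean of the standardised levels of Fos, Fosb and Junb over the 16 retinas, with group means removed, were sought among all genes at a mean of 1 FPKM. Dusp1, a phosphatase of MAP kinases and itself an immediate early gene, came first (r = 0.96). It was followed by Tuba8, Midn, Egr3, Arhgap23, Egr1, Tcf3, Palm, Cdc42ep4 and Ivl, with r from 0.89 down to 0.85. The 16 points share their libraries, and M22 lies far above the others in the mean of the 3 genes. Without M21 and M22, r was 0.89 for Dusp1, 0.66 for Egr3 and 0.77 for Ivl, and the ranking was another: 0 of these 10 genes were among the first 10. Those were led by Ahdc1, Cxx1c and Slc22a17 (r = 0.95, 0.95 and 0.94) and included Nr4a1. Dusp1 itself was at 11.4 ± 5.32 FPKM after spaceflight and 13.7 ± 3.94 FPKM in ground control (difference -0.32, limma adjusted p = 0.578).

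DNA methylation at the AP-1 promoters, taken as 1000 bases to either side of the start, was near 0 in both groups. The median of 15089 promoters was 0.571%, and 77.9% of them were under 5%. Over 50 CpGs Fos had 0.466% ± 0.108 in the 8 spaceflight retinas and 0.336% ± 0.162 in the 8 of the ground control group (mean ± SD), Jun 0.547% ± 0.147 and 0.387% ± 0.136 over 57 CpGs, and Junb 0.773% ± 0.176 and 0.736% ± 0.172 over 62 CpGs. Fosl2 had 0.417% ± 0.118 and 0.397% ± 0.142 over 65 CpGs, Batf3 0.841% ± 0.374 and 0.806% ± 0.357 over 20 CpGs, and Fosb 2.003% ± 0.301 and 1.79% ± 0.217 over 49 CpGs. Atf3 was the most methylated, with 6.58% ± 0.671 and 6.59% ± 0.702 over 68 CpGs. Jund had no CpG with 10 reads in all 16 libraries around its annotated start and was not tested. Single CpGs of the 7 promoters were read by medians of 43 to 69 reads.

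None of the 7 promoters differed by the thresholds of 10 points and an adjusted p of 0.05 in the two-sided exact permutation test, and 0.0% of all promoters did. With means of 6.59% or less in ground control, none of the 7 could lose 10 points, so only a gain could have met the threshold. Jun was at an unadjusted exact p of 0.0406 with a difference of 0.16 points (adjusted p = 0.967), where 4.96% of all promoters were at 0.05 or under. The ranges of the 2 groups overlapped for Jun, 0.317% to 0.800% after spaceflight and 0.160% to 0.597% in ground control. With a minimum of 5 or of 20 reads a CpG, and without 9 of the 16 libraries in turn, the exact p of Jun was above 0.05. Fos had a difference of 0.13 points (exact permutation p = 0.0816, adjusted p = 0.968) and Fosb of 0.21 points (exact permutation p = 0.126, adjusted p = 0.972), and the other 4 had exact p from 0.671 to 0.972. Fos was at an exact permutation p of 0.0325 with pooled reads and 0.00404 without M37, and Fosb at 0.0177 within 500 bases of the start and 0.0370 without M22, with adjusted p of 0.768 or more in all 4.

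The methylated CpGs of Atf3 lay away from its start. Of its 68 CpGs, the 24 that were more than 500 bases before the start had 17.9% ± 1.81 with spaceflight and 17.8% ± 2.01 without it (SD, n = 8 each), and the other 44 had 0.428% ± 0.0919 and 0.449% ± 0.143. The division at 500 bases was set after these values were seen. In Fosb 2 CpGs, 796 and 850 bases before the start, carried the methylation, the nearer with 52.8% ± 8.43 after spaceflight and 52.5% ± 7.09 in ground control. All 50 CpGs of Fos, 57 of Jun, 65 of Fosl2 and 20 of Batf3 were under 5%. The largest group difference at any CpG of the 7 promoters was 8.85 points, in Atf3.

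**Figure D5:**
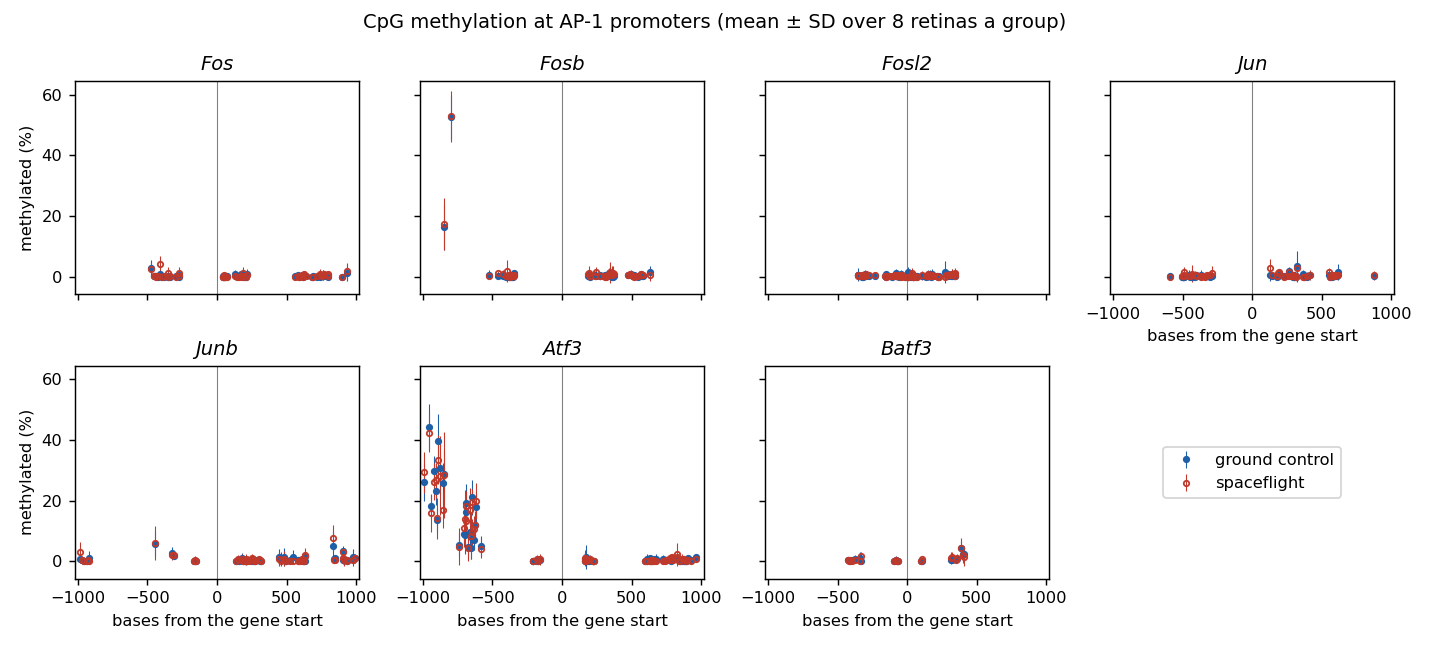
Percent methylation of each CpG within 1000 bases of the start of 7 AP-1 genes against its distance from the start in bases, as mean and SD of 8 ground control (blue, filled) and 8 spaceflight (red, open) retinas. The CpGs near the starts lie close to 0 in both groups, and those of Atf3 more than 500 bases before the start average 17.9% and 17.8%.

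Beyond the promoter windows the level of methylation went from near 0 in the 3 Jun family genes to 87.4% and 88.8% in Batf3. The rest of Jun (51 CpGs), Junb (28 CpGs) and Jund (75 CpGs) was near 0 along its length, with 0.435% ± 0.160, 0.542% ± 0.139 and 0.288% ± 0.0736 after spaceflight and 0.426% ± 0.176, 0.654% ± 0.448 and 0.332% ± 0.138 in ground control. The 8 CpGs farther into Fos had 66.3% ± 3.54 and 68.9% ± 4.98, the 33 of Fosl2 69.0% ± 1.84 and 68.2% ± 3.87, and the 7 of Batf3 87.4% ± 3.60 and 88.8% ± 2.33. Fosb lay between, with 16.2% ± 1.13 and 15.3% ± 1.01 over 55 CpGs of which 35 were under 10% and 6 over 50%. In Atf3 only 2 CpGs could be read there. These levels within the genes were not tested.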

How the data were processed

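RNA-seq (9 spaceflight, 7 ground control) and RRBS (8 and 8) libraries were made from single retinas, and the study states that each retina gave both RNA and DNA. Under the mouse numbers used here, the RNA of M32 is labelled right and its DNA left, and for M33 the reverse. M30 and M40 have RNA only, and M37 and M39 DNA only. Per the labels and the study's methods, the authors depleted ribosomal RNA with insert-dependent primers in a strand-selecting kit, trimmed with Trimmomatic, aligned to GRCm38 with TopHat2 at its default settings and deposited FPKM from Cufflinks. The gene model was that of NCBI for GRCm38. No strand setting is named for alignment or quantification, so reads of overlapping antisense genes may not be told apart. FPKM keep no read counts, so no counting interval is given. The read totals in the study's own table were not used here. Short structural RNAs were left in the values, and a scaling without them was an alternative. For RRBS the authors cut DNA with MspI, trimmed with Trim Galore 0.4.5, aligned with Bismark, removed duplicates by molecular tags and deposited, per CpG, the coverage as a read count and the percent of C and T. The deposited calls held 61652709 to 80242659 CpG reads a library after spaceflight and 59572205 to 105298542 in ground control. The 10-read minimum limits a single CpG to steps of 10 points or less.

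The 8 members were matched by symbol. Groups came from the labels, and mice in the expression table were matched through library codes. For 6 ground control RNA libraries the mouse number in the title differs from the number that the study's read table gives for the library code. The table's numbers are used, the eye is that of the library's own label, and every library involved is ground control under both. 2 per-sample expression columns matched no labelled RNA library and were not used. Genes with a mean of at least 1 FPKM (14322) were tested as log2(FPKM + 0.1) with limma 3.58.1 (R 4.3.3, mean-variance trend, no covariates) and Benjamini-Hochberg adjustment over all of them. A fold on this scale understates the change of low genes. A gene was called at a fold of 1.2, p of 0.05 and adjusted p of 0.3, the limits of the study. The study set them on another test, Cuffdiff, for genes at 1 FPKM or more in all samples. By that test it listed Junb among the genes with changed expression. Promoter means (1000 bases to either side, 5 or more CpGs covered by 10 or more reads in each of the 16 libraries) were compared by a two-sided exact permutation test. Python 3.11.15 with numpy 2.4.6, scipy 1.17.1 and pandas 2.3.3 was used for DNA, correlations and sequences. Each mouse gave 1 retina to a group, so the replicates are animals.

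Alternatives were pseudocounts of 1 and 0.01, 2 other filters, 2 scalings, limma without the trend, an exact permutation test, terms for the eye and for 2 marker lists, M21 as ground control, other coverage limits and windows, and leaving out each library. Members, gene lists and marker lists were chosen with earlier results of these data known. All members are named. Of each other list the called genes were named, then those past the unadjusted thresholds in order of p, up to 6, besides Nrl, Dusp1, Ivl and Lor. Nrl, Ivl and Lor were picked after their values were seen. 1 gene that the rule names is not reported here. The genes most like the members were the 10 with the highest r. Scripts were tested on simulated data.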

Additional observations from a re-analysis of the deposited data

Results flagged for a closer look

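In groups of 4 to 10 samples the highest or lowest sample was marked where its gap to the next exceeded the 95% critical value of Dixon's test, which chance alone exceeds in about 1 of 20 groups. Of 62 groups looked at, 16 of them the members' FPKM, 15 held such a sample.

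Among the AP-1 subunits, 3 of the 4 came from the spaceflight mouse M22. Its Fos stood at 17.3 FPKM with the next spaceflight retina at 9.66 FPKM, its Fosb at 6.09 FPKM with the next at 1.29 FPKM, and its Atf3 at 5.43 FPKM with the next at 3.11 FPKM. The ground control mouse M31 had 0.672 FPKM of Batf3 with the next at 0.139 FPKM.

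The other 11 were summed marker levels. In M22 the lens markers stood at 29244 FPKM (next spaceflight retina 734 FPKM), the fibroblast markers at 293 FPKM (next 129 FPKM) and the skeletal muscle markers at 143 FPKM (next 58.4 FPKM). M21 had 2065 FPKM of surface epithelium markers, with M22 next at 1052 FPKM, and M23 had 5614 FPKM of pigment epithelium markers (next 2568 FPKM). In M31 the lens markers stood at 37132 FPKM (next ground control retina 1405 FPKM), the pigment epithelium markers at 8284 FPKM (next 3169 FPKM), the Müller glia markers at 4859 FPKM (next 2999 FPKM), the fibroblast markers at 533 FPKM (next 162 FPKM) and the microglia and macrophage markers at 203 FPKM (next 73.7 FPKM). Its cone markers were the lowest of the ground control group, at 352 FPKM (next 617 FPKM). The part of these tissues in the levels of the subunits was not tested.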

How the results depend on the processing

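The count of called subunits was 0 in 12 of 14 alternatives other than leaving out 1 library, 5 with the surface epithelium term and 2 with the fibroblast term. It ran from 0 to 3 with 1 library left out, 3 being without M31. The count past the unadjusted thresholds was 1 when scaled without short RNAs, 5 with the surface epithelium term, 4 with M21 as ground control, 6 without M21 and M22 and 6 without M21, M22 and M31, the last 2 chosen after seeing the data. It ran from 1 to 5 with 1 library left out. No groups were apart except for 1 subunit (Jun) without M21 and M22 and 1 without M21, M22 and M31. There 18 of 14101 and 37 of 14001 genes were apart in the lower direction. Atf3 was at 0.037 when scaled without short RNAs, where 83 genes of all were past the unadjusted thresholds lower and 1067 higher, in place of 2.92% and 4.36%. The count of Fos relations ran from 1 to 5 with 1 library left out. The r of Fos with Fosl2 was -0.090 without M21 and M22 and ran from -0.13 to 0.42 with 1 left out, and that with Batf3 from -0.32 to 0.090. Promoter differences changed sign, in points, for Junb with the narrower window (-0.0098), for Atf3 with at least 20 reads (0.293) and the narrower window (0.0426) and for Batf3 with pooled reads (-0.0653). With 1 library left out they ran from -0.0094 to 0.051 for Fosl2, -0.0010 to 0.088 for Junb, -0.161 to 0.156 for Atf3 and -0.0358 to 0.133 for Batf3. The cause was not tested. Over all genes the exact permutation test called 162 lower and 242 higher, limma 14 and 7. No paired analysis was possible because the groups hold different mice and share no replicate number. The FPKM keep no counts, and 43 to 69 reads a CpG (medians) limit single CpGs.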
